A study of Mus musculus with 12 samples.

Results

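The genes of polyamine metabolism measured here were Odc1, Srm, Sms, Amd1, Oaz1, Oaz2, Azin1, Sat1 and Smox, chosen by symbol as 9 of the 37991 Ensembl identifiers in a mouse RNA-seq count table. All 9 were among the 13538 genes that passed the filter on low counts and were tested. Resting B cells were purified from spleens of mice aged 8 weeks, and poly(A)+ RNA was sequenced at 0 h and after 3 h with anti-IgM, which engages the B cell receptor, and IL-4. The control mice carried the CD23-iCre transgene alone (Cre-only), and the knockout mice carried CD23-iCre together with the conditional Runx1 allele (Runx1 c-k/o, called the knockout below), so that every sample came from cells with the transgene. The 4 groups, Cre-only resting, Cre-only 3 h, Runx1 c-k/o resting and Runx1 c-k/o 3 h, had 3 samples each. Cre driven by the CD23 promoter acts from the transitional stage of B cell development, and it removes exon 4 of Runx1, the gene of a RUNX transcription factor. The cells therefore kept Runx1 until that stage. The labels do not say whether a sample pooled animals or whether a resting and a 3-h sample of the same number came from the same cells, so the p-values measure the spread between these samples.

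The polyamines putrescine, spermidine and spermine are small positively charged metabolites that bind RNA and are needed for growth and translation. Ornithine decarboxylase makes putrescine, and spermidine and spermine are built from it with aminopropyl groups from decarboxylated S-adenosylmethionine. The pathway is held in check by antizymes, which bind ornithine decarboxylase and send it to the proteasome, and polyamines themselves raise antizyme production. Ornithine decarboxylase is a classic early-response enzyme of stimulated lymphocytes, and its gene and that of spermidine synthase are known targets of MYC.

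Between 14442251 and 23641552 counts per sample were assigned to genes, and 3 counts, taken as the floor, corresponded to 0.127 to 0.208 CPM, a count divided by the size of its library on a shared scale. Levels below are normalized CPM, for which the library sizes were first adjusted by the TMM method. They are relative to each library, so a rise or fall below is not a change in transcripts per cell. The 8 matched B cell markers were present in each group, none at 0 throughout, and their sums are given beside Sat1. The 6 T cell markers summed to at most 6.36 normalized CPM. Transcripts of Xist and of 4 Y-linked genes were found together in all 12 libraries. Sms and Sat1 lie on the X chromosome, and whether their levels depend on the sex of the animals was not tested. Runx1 counts cover the whole gene and so do not check the deletion of exon 4. They were 83.6, 81.8 and 86.7 normalized CPM in Cre-only resting and 101, 95.7 and 103 in knockout resting samples, a log2 difference of 0.25 (edgeR adjusted p = 0.548). At 3 h the Cre-only samples held 38.5, 37.0 and 34.9 normalized CPM and the knockout samples 47.3, 70.6 and 74.5, higher in the knockout by 0.80 (edgeR adjusted p = 0.00769) on the log2 scale, a call lost with only the groups compared in the fit, at 0.82 (adjusted p = 0.0889). A pair of knockout libraries stood apart from the other replicates of their groups in several of the genes below, namely resting replicate 2 and 3-h replicate 1. Their deviations from their group means correlated across genes (r = 0.551), so results at rest and at 3 h that rest on them may not be independent. Xist was the lowest of its group in both. At rest it was at 295 normalized CPM against 539 and 575, and at 3 h at 290 against 509 and 854. Whether this bears on the genes below was not tested. Results that rest on these 2 libraries are given with and without them, an alternative chosen after seeing the data.

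Odc1 (ENSMUSG00000011179), which encodes ornithine decarboxylase, the rate-limiting enzyme of the pathway, lies on the plus strand of chromosome 12 of mm9 from 17551679 to 17558308. Its level rose on activation in both genotypes. The start of its first intron is shown because it holds the CACGTG E-boxes that MYC is known to bind. The sequence is the first 100 bases of the intron on the plus strand at chr12:17551975-17552074, read from the mm9 genome, with the E-boxes in capitals.
Odc1 intron 1: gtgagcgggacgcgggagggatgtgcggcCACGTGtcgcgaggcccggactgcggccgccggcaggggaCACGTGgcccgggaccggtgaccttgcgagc
CACGTG reads the same on both strands, and the 2 copies lie at 17552004 to 17552009 and 17552044 to 17552049. Of 12153 first-intron windows of the same length, 216 (1.78%) held at least 1 copy and 7 (0.0576%) held at least 2. A match of letters is a description and not evidence of binding in these cells.

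Odc1 was at 296, 292 and 279.6 normalized CPM in the 3 Cre-only resting samples and at 631, 721 and 694 in the Cre-only 3 h samples. In knockout cells it was at 355, 506 and 333 at rest and at 1158, 824 and 844 at 3 h. Every 3-h sample lay above every resting sample of its genotype, and replicate 2 of the resting and replicate 1 of the 3-h knockout cells were the highest of their groups. The log2 fold change on activation was 1.24 (SE 0.168, 95% interval 0.87 to 1.60, edgeR adjusted p = 2.67e-05) in Cre-only and 1.24 (SE 0.168, 95% interval 0.88 to 1.61, edgeR adjusted p = 2.62e-05) in knockout cells, changes of 2.36-fold and 2.37-fold. With 1 factor of unwanted variation (RUVs) in the edgeR fit these values were smaller, 0.61 (adjusted p = 0.000725) and 0.60 (adjusted p = 0.00081), and still past the threshold of 0.05. Stretches at least 95% identical to Odc1 over 100 or more bases lie in 5 other annotated genes, whose counts came to 6.38% of those of Odc1, so a small part of its count is uncertain.

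**Figure D1:**
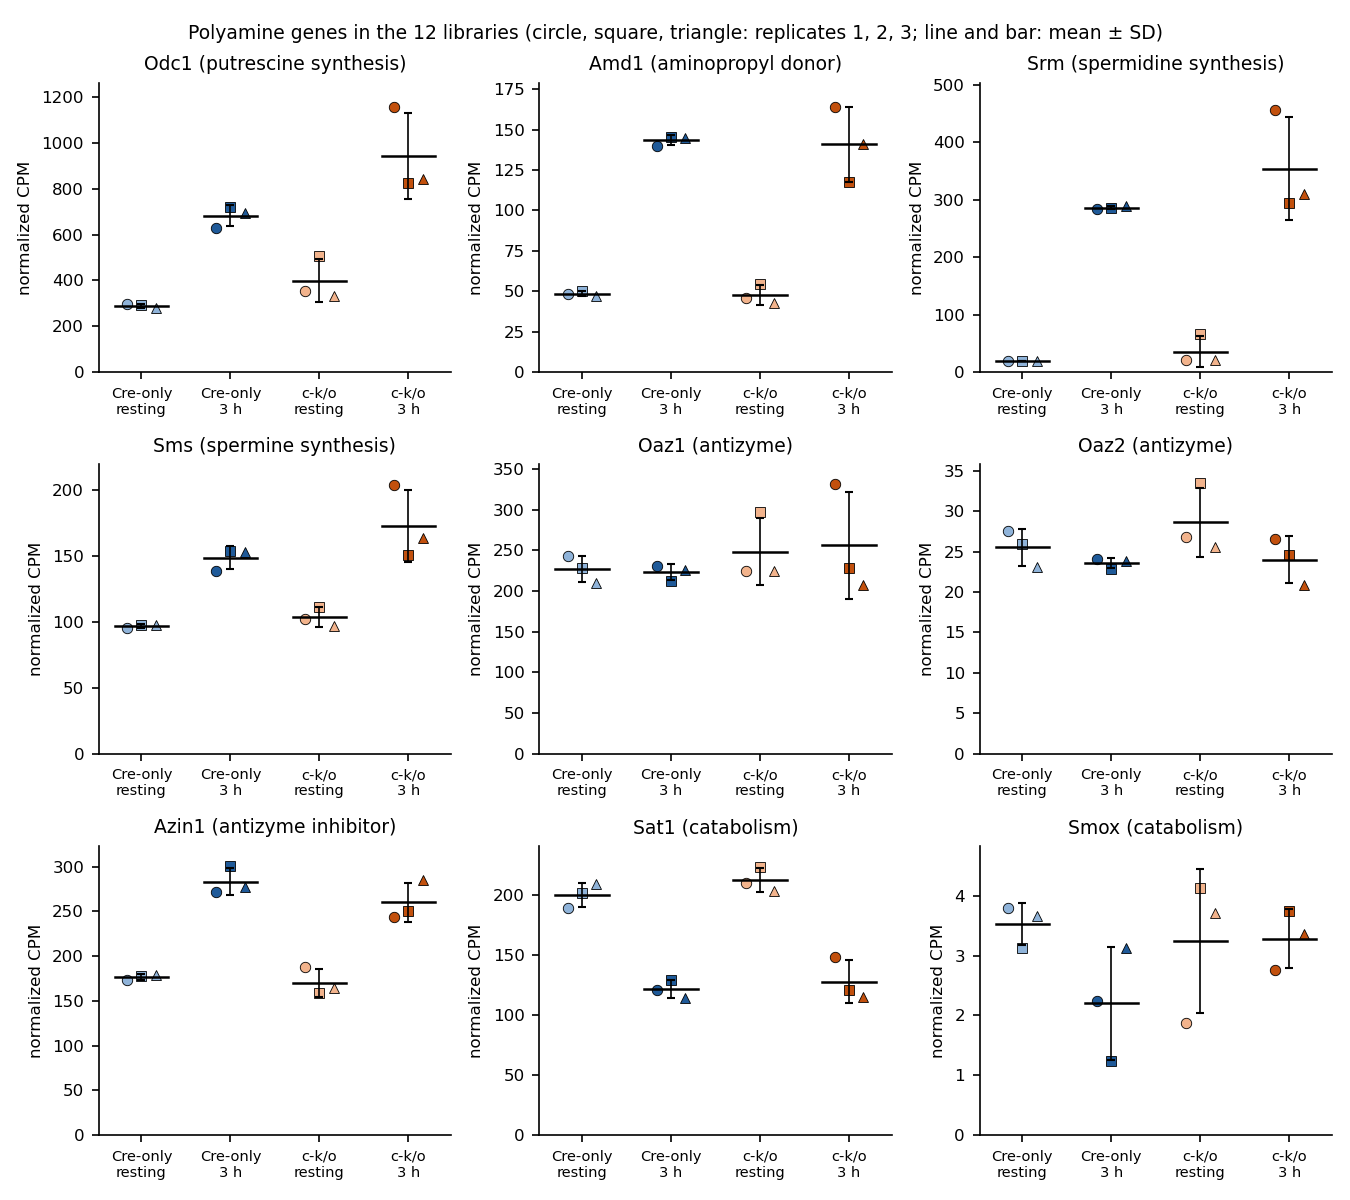
Normalized CPM of each of the 9 polyamine genes (vertical axes, each from 0) in the 12 samples, grouped as Cre-only resting, Cre-only 3 h, Runx1 c-k/o resting and Runx1 c-k/o 3 h. Points are samples and bars are group means with SD (n = 3). Srm moved from 19.1 ± 0.513 to 287 ± 3.03 in Cre-only cells, whereas Oaz1 stayed at 227 ± 16.2 and 223 ± 9.85.

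Srm (ENSMUSG00000006442; chromosome 4, 147965612 to 147969102, plus strand) encodes spermidine synthase and had the largest change among the 9 genes. It was at 19.1, 18.5 and 19.5 normalized CPM in Cre-only resting samples and at 284, 287 and 289.7 in Cre-only 3 h samples. The knockout samples gave 20.1, 66.1 and 20.7 at rest and 457, 295 and 309.9 at 3 h. The activated samples lay far above the resting ones in both genotypes, and replicate 2 of the knockout resting cells lay well above the other resting samples. On activation its log2 fold change came to 3.91 (SE 0.402, 95% interval 3.04 to 4.79, edgeR adjusted p = 2.35e-06) in Cre-only cells, a 15.0-fold rise, and 3.31 (SE 0.389, 95% interval 2.47 to 4.16, edgeR adjusted p = 7.78e-06) in knockout cells, a 9.93-fold rise. Without resting replicate 2 the knockout value was 4.11. With 1 RUVs factor in edgeR the values were 2.77 (adjusted p = 0.00242) and 2.23 (adjusted p = 0.00378).

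Amd1 (ENSMUSG00000075232; chromosome 10, 40007265 to 40021992, minus strand) encodes S-adenosylmethionine decarboxylase, which makes the aminopropyl donor for the synthases. It was at 48.1, 50.3 and 46.9 normalized CPM at rest and 139.9, 145 and 145 at 3 h in Cre-only cells, and at 45.6, 54.6 and 42.7 and 164, 117 and 141 in knockout cells. No resting sample reached any 3-h sample. Its log2 fold change was 1.57 (SE 0.123, 95% interval 1.30 to 1.83, edgeR adjusted p = 2.39e-07) in Cre-only and 1.56 (SE 0.123, 95% interval 1.30 to 1.83, edgeR adjusted p = 2.98e-07) in knockout cells, about 2.96-fold in each. Stretches of at least 95% identity lie in 5 annotated genes, Amd2 among them, with 3.70% as many counts as Amd1.

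Sms (ENSMUSG00000071708; chromosome X, 153881787 to 153930219, minus strand) encodes spermine synthase, which acts on the product of Srm. It rose by less than the other enzymes of synthesis. Its levels in Cre-only cells were 94.7, 97.7 and 97.5 normalized CPM at rest and 138, 154 and 153 at 3 h, and in knockout cells 102, 111 and 96.5 and 203, 151 and 163. The 3-h samples again lay above the resting ones without overlap, with 3-h replicate 1 of the knockout cells the highest. Sms changed on the log2 scale by 0.62 (SE 0.108, 95% interval 0.38 to 0.85, edgeR adjusted p = 0.000221) in Cre-only and 0.74 (SE 0.108, 95% interval 0.50 to 0.97, edgeR adjusted p = 5.29e-05) in knockout cells. With 1 RUVs factor it was 0.24 (adjusted p = 0.0406) in edgeR and 0.13 (adjusted p = 0.297) in DESeq2 for the Cre-only cells, the latter past no threshold.

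The antizyme genes behaved differently from the enzymes of synthesis. Oaz1 (ENSMUSG00000035242; chromosome 10, 80289401 to 80292035, plus strand) and Oaz2 (ENSMUSG00000040652; chromosome 9, 65515808 to 65538107, plus strand) encode the antizymes. Their messages hold an internal stop codon, which ribosomes bypass by a shift of reading frame when polyamines are abundant, so a level of mRNA is not a level of antizyme protein. The stretches around that stop codon, read from mm9, are shown with the stop codon in capitals, because this regulated step lies after the mRNA measured here. They come from chr10:80291020-80291055 and chr9:65534059-65534094, plus strand.
Oaz1: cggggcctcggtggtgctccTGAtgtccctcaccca
Oaz2: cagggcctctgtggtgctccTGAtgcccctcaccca
Of the 36 bases, 33 were identical between the genes. The Oaz2 stretch was chosen as the 36 bases of its gene most like the Oaz1 stretch, so this identity is the highest in that gene.

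Oaz1 was at 242, 229 and 210.2 normalized CPM in Cre-only resting and 231, 212 and 225 in Cre-only 3 h samples. Its knockout values were 225, 297 and 224 at rest and 332, 228 and 208 at 3 h. The resting and activated samples overlapped in both genotypes, and the libraries that stood apart gave the highest value in each knockout group. Its log2 fold change on activation was -0.03 (edgeR adjusted p = 0.886) in Cre-only cells, with a 95% interval of -0.38 to 0.33, and 0.04 (edgeR adjusted p = 0.824) in knockout cells, with an interval of -0.31 to 0.40. This result depended on the model: with 1 RUVs factor in edgeR Oaz1 was lower at 3 h, with changes of -0.66 (adjusted p = 0.000171) and -0.64 (adjusted p = 0.000359) on the log2 scale. A near-identical copy, Gm9786, had 6.48% as many counts as Oaz1.

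Oaz2 was at 27.6, 26.0 and 23.1 normalized CPM at rest and 24.1, 22.9 and 23.9 at 3 h in Cre-only cells, and at 26.8, 33.5 and 25.6 and 26.6, 24.6 and 20.8 in knockout cells. The resting and 3-h samples overlapped in both genotypes. For Oaz2 activation gave a log2 fold change of -0.11 (SE 0.124, 95% interval -0.38 to 0.16, edgeR adjusted p = 0.421) in Cre-only and -0.25 (SE 0.124, 95% interval -0.53 to 0.02, edgeR adjusted p = 0.081) in knockout cells. It passed the threshold with 1 RUVs factor in edgeR, at -0.44 (adjusted p = 0.0217) and -0.59 (adjusted p = 0.00446), and under the stricter filter of at least 10 counts in all samples, at -0.27 (adjusted p = 0.0488) and -0.35 (adjusted p = 0.0151). In knockout cells it did so also without 3-h replicate 1, at -0.34 (adjusted p = 0.0202), and without resting replicate 3, at -0.33 (adjusted p = 0.0484).

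Azin1 (ENSMUSG00000037458; chromosome 15, 38417185 to 38449021, minus strand) encodes the antizyme inhibitor, a protein related to ornithine decarboxylase that binds antizyme but has no decarboxylase activity. It was at 173, 178 and 179 normalized CPM in Cre-only resting and 272, 300.3 and 277 in Cre-only 3 h samples, and at 188, 158 and 164 and 244, 251 and 285 in knockout cells. All 3-h samples were above all resting samples. In contrast with Odc1 and Srm, the libraries that stood apart were not the highest of their groups for Azin1. On the log2 scale the change was 0.68 (SE 0.093, 95% interval 0.48 to 0.88, edgeR adjusted p = 2.67e-05) in Cre-only and 0.61 (SE 0.093, 95% interval 0.41 to 0.81, edgeR adjusted p = 6.9e-05) in knockout cells, that is 1.60-fold and 1.53-fold.

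Sat1 (ENSMUSG00000025283; chromosome X, 151647675 to 151650992, minus strand) encodes spermidine/spermine N-acetyltransferase, which marks polyamines for export and breakdown. It fell on activation in both genotypes. Its levels were 189, 201 and 209 normalized CPM at rest and 121, 129 and 114 at 3 h in Cre-only cells, and 210.0, 223 and 203 and 148, 120.3 and 115 in knockout cells. Each 3-h sample was below each resting sample. Sat1 had a log2 fold change of -0.72 (SE 0.102, 95% interval -0.94 to -0.49, edgeR adjusted p = 3.95e-05) in Cre-only and -0.73 (SE 0.102, 95% interval -0.96 to -0.51, edgeR adjusted p = 3.37e-05) in knockout cells, levels 1.64-fold and 1.66-fold lower at 3 h. The 7 myeloid markers, none at 0 throughout a group and led by Csf1r, summed to 200.1 to 243 normalized CPM in Cre-only resting and to 11.2 to 16.6 in Cre-only 3 h samples. The knockout sums of these markers were 176 to 339 at rest and 12.2 to 35.4 at 3 h. The 8 matched B cell markers also summed to less at 3 h, from 15134 to 16156 at rest to 5285 to 5838 in Cre-only cells and from 16219 to 18073 at rest to 5369 to 6304 in the knockout. Ighm was the largest of them, and Fcer2a did not follow, at 1074 to 1133 at rest and 1089 to 1152 at 3 h in Cre-only cells. Their part in the fall of Sat1 was not tested, and in bulk samples fewer cells of a type and less RNA per cell cannot be told apart. As levels are relative to the library, a change in total RNA per cell cannot be told apart from these either.

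Smox (ENSMUSG00000027333; chromosome 2, 131317232 to 131351658, plus strand) encodes spermine oxidase, which turns spermine back into spermidine, and was the least abundant of the 9 genes, with 19 to 79 counts per sample. It was at 3.81, 3.13 and 3.66 normalized CPM at rest and 2.24, 1.24 and 3.12 at 3 h in Cre-only cells, and at 1.87, 4.14 and 3.72 and 2.77, 3.74 and 3.36 in knockout cells. The Cre-only groups barely missed each other, and the knockout groups overlapped. Its log2 fold change was -0.68 (SE 0.322, 95% interval -1.38 to 0.02, edgeR adjusted p = 0.0729) in Cre-only and 0.03 (SE 0.319, 95% interval -0.67 to 0.72, edgeR adjusted p = 0.941) in knockout cells. In Cre-only cells the value passed the threshold without 3-h replicate 3, at -0.98 (edgeR adjusted p = 0.024), and with the replicate block within genotype, at -0.73 (edgeR adjusted p = 0.0302). That block pairs samples by number in both genotypes. The labels do not state such pairs, which were inferred for Cre-only cells from correlations of 0.175 to 0.309 in these same data.

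In each genotype, then, 6 of the 9 genes passed the test on activation (edgeR's quasi-likelihood test, adjusted p under 0.05), Odc1, Srm, Sms, Amd1 and Azin1 upwards and Sat1 downwards. Of all 13538 genes tested, 75% passed in Cre-only cells and 74.3% in knockout cells, so that the share of these genes that changed was close to the background. By direction, 38.6% of all genes were called higher and 36.4% lower in Cre-only cells, against 37.7% and 36.6% in knockout cells. The median log2 fold change of the 9 genes was 0.62 in Cre-only and 0.61 in knockout cells, where that of all tested genes was 0.03 and 0.00. The resting and 3-h samples did not overlap for 7 genes in Cre-only cells (84.4% of all genes) and for 6 in knockout cells (72.8% of all genes). With both libraries that stood apart left out, 7 of the 9 passed in each genotype, Smox being added in Cre-only and Oaz2 in knockout cells.

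**Figure D2:**
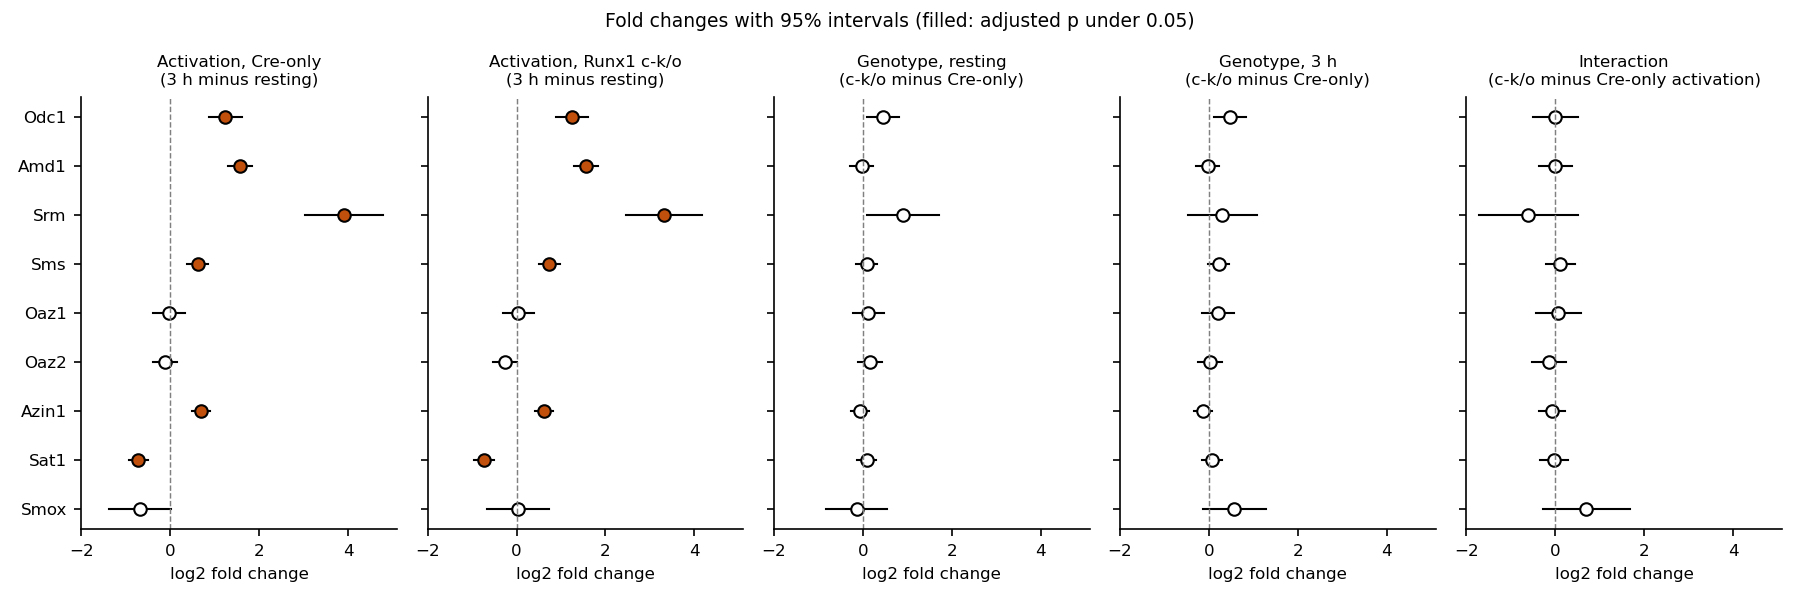
Log2 fold change of each polyamine gene with its 95% interval from edgeR (n = 3 samples per group), for activation in each genotype, for the knockout against the control at rest and at 3 h, and for the interaction. The intervals of Odc1, Srm, Sms, Amd1 and Azin1 on activation lie above 0 and those of Sat1 below it. The genotype intervals of Odc1 lie above 0 at both times, 0.10 to 0.82 and 0.10 to 0.83, and that of Srm at rest, 0.09 to 1.72. None of these genotype differences passed the threshold (edgeR adjusted p = 0.29 and 0.191 for Odc1 and 0.386 for Srm).

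Activation changed the order of the 9 genes when levels were divided by the exonic length of each gene (normalized CPM per kb). In Cre-only resting cells Oaz1 was first at 212 ± 15.1 (SD, n = 3), followed by Odc1 at 114 ± 3.43, Sat1 at 72.0 ± 3.52 and Azin1 at 28.3 ± 0.532. Sms at 16.1 ± 0.276, Amd1 at 15.1 ± 0.541, Srm at 11.9 ± 0.321, Oaz2 at 8.54 ± 0.753 and Smox at 0.907 ± 0.0910 completed the order, and no neighbours in it overlapped between samples. In Cre-only 3 h cells Odc1 came first at 268 ± 18.2, Oaz1 was next at 208 ± 9.19 and Srm had moved up to 179 ± 1.90. Azin1, Amd1 and Sat1 followed at 45.4 ± 2.44, 44.8 ± 0.967 and 43.8 ± 2.65, each overlapping its neighbour among these, and Sms, Oaz2 and Smox were last.

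The order was similar in knockout cells, with wider spreads. At rest Oaz1 was at 232 ± 38.9, Odc1 at 156 ± 36.8 and Sat1 at 76.5 ± 3.69 normalized CPM per kb. Azin1, Srm, Sms and Amd1 came next, each overlapping its neighbour, Srm with a mean of 22.3 ± 16.5 drawn upwards by replicate 2. At 3 h Odc1 was at 369.9 ± 73.5, and Oaz1 at 239 ± 61.9 and Srm at 221 ± 56.2 overlapped. Sat1, Amd1 and Azin1 overlapped as well, from 46.0 ± 6.47 to 41.7 ± 3.51. Together the 9 genes took 0.114% to 0.116% of all counts in Cre-only resting and 0.181% to 0.190% in Cre-only 3 h samples, and 0.116% to 0.145% and 0.201% to 0.242% in the knockout samples.

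Ratios of counts within a library do not depend on its size, so members were also set against each other, as a description with no test. The ratio of Odc1 to Oaz1, the enzyme to its main antizyme, was 1.22 to 1.33 in Cre-only resting and 2.73 to 3.40 in Cre-only 3 h samples. In knockout cells it was 1.49 to 1.71 at rest and 3.49 to 4.06 at 3 h, above the Cre-only range at each time with no overlap. Resting replicate 2 gave the highest and 3-h replicate 1 the lowest value of its knockout group, so that neither library was needed for this separation. Odc1 alone also lay higher in the knockout without overlap at both times, as 12% of all genes did at rest and 9.5% at 3 h. How often ratios of other gene pairs separate in this way was not counted. The ratio of Odc1 to Azin1 was 1.56 to 1.72 and 2.32 to 2.50 in Cre-only cells and 1.89 to 3.19 and 2.96 to 4.74 in knockout cells, again higher in the knockout at both times.

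The balance within synthesis, and between synthesis and breakdown, moved with activation. Srm to Sms went from 0.189 to 0.202 to 1.87 to 2.05 in Cre-only cells and from 0.197 to 0.594 to 1.90 to 2.25 in knockout cells. The upper end of the resting knockout range came from replicate 2. Amd1 to Sat1 went from 0.225 to 0.254 to 1.13 to 1.27 in Cre-only and from 0.210 to 0.244 to 0.976 to 1.23 in knockout cells. The genotypes overlapped in both of these ratios at both times.

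**Figure D3:**
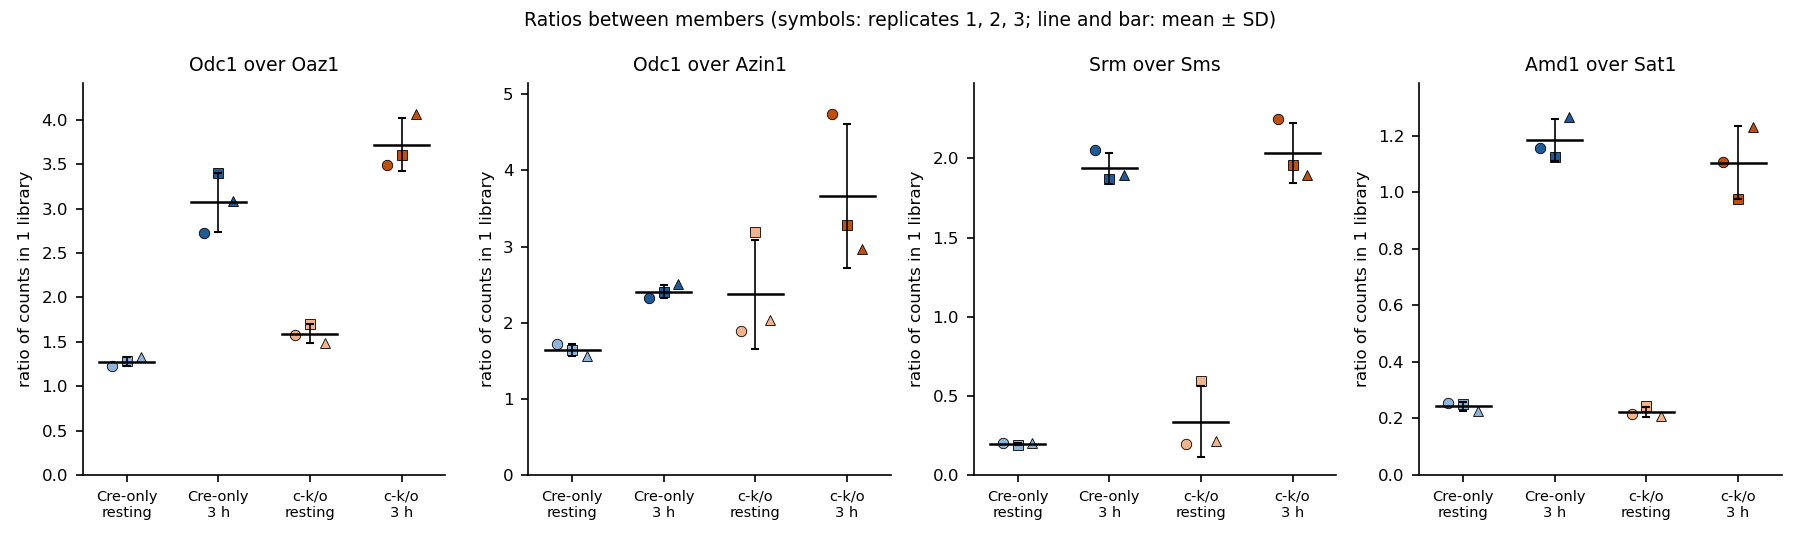
Ratio of counts between pairs of polyamine genes in each of the 12 libraries (Odc1 to Oaz1, Odc1 to Azin1, Srm to Sms and Amd1 to Sat1; vertical axes). Points are samples and bars are group means with SD (n = 3). The Odc1 to Oaz1 ratio lies higher in knockout than in control samples at both times, 1.49 to 1.71 against 1.22 to 1.33 at rest and 3.49 to 4.06 against 2.73 to 3.40 at 3 h.

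Most of these genes overlapped between the genotypes, with Odc1 and Srm as the exceptions. Odc1 was at 398 ± 93.8 normalized CPM in knockout and 289 ± 8.74 in Cre-only resting cells (SD, n = 3 each), with all 3 knockout samples above all 3 controls. The log2 fold change between genotypes was 0.46 (SE 0.166, 95% interval 0.10 to 0.82, edgeR adjusted p = 0.29), with an unadjusted edgeR p of 0.0172. It passed the threshold with 1 RUVs factor, at 0.34 (adjusted p = 0.023) in edgeR and 0.33 (adjusted p = 0.000592) in DESeq2, and with both libraries that stood apart left out, at 0.25 (adjusted p = 0.0265) in edgeR. Without replicate 2 alone it was 0.25 (adjusted p = 0.766), and over all alternatives the adjusted p ran from 0.000592 to 0.766. Srm was at 35.7 ± 26.4 and 19.1 ± 0.513 normalized CPM (SD, n = 3 each), again without overlap. Its log2 fold change of 0.90 (SE 0.374, 95% interval 0.09 to 1.72, edgeR adjusted p = 0.386) rested on replicate 2 and was 0.10 (adjusted p = 0.999) without it.

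After 3 h the pattern was alike. Odc1 was at 942 ± 187 normalized CPM in knockout and 682 ± 46.4 in Cre-only cells (SD, n = 3 each), without overlap, for a difference of 0.47 (SE 0.166, 95% interval 0.10 to 0.83, edgeR adjusted p = 0.191) on the log2 scale. It was 0.33 (adjusted p = 0.0174) with 1 RUVs factor in edgeR, 0.36 (adjusted p = 5.17e-05) with that factor in DESeq2, 0.31 (adjusted p = 0.00335) in edgeR without both libraries that stood apart, and 0.32 (adjusted p = 0.28) in edgeR without 3-h replicate 1 alone. Over all alternatives its adjusted p ran from 5.17e-05 to 0.464. Srm was at 354 ± 89.9 and 287 ± 3.03 (SD, n = 3 each), without overlap, a log2 difference of 0.30 (SE 0.352, 95% interval -0.46 to 1.07, edgeR adjusted p = 0.663) that was 0.10 (adjusted p = 0.972) without replicate 1.

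None of the 9 genes passed the threshold between genotypes at either time in the edgeR fit of all 12 samples, where 1.49% of all genes did so at rest and 2.77% at 3 h. At an unadjusted p under 0.05 there were 2 of the 9 at rest (Odc1 and Srm) and 1 at 3 h (Odc1), where 11.1% and 16.2% of all genes reached it, and DESeq2's Wald test without a factor called 0 at both times. The genotypes did not overlap for Odc1 and Srm at both times, each higher in the knockout, an arrangement that 3.5% of all genes showed, 12% at rest and 9.5% at 3 h. In either direction 23.7% of all genes did not overlap at rest and 21.8% at 3 h. The other 7 genes overlapped at both times. Their log2 fold changes at rest ran from -0.13 (Smox) to 0.16 (Oaz2), with edgeR adjusted p-values of 0.66 to 0.945. At 3 h they ran from -0.12 (Azin1) to 0.57 (Smox), with edgeR adjusted p-values of 0.34 to 0.941. For Azin1 the 95% interval was -0.26 to 0.15 at rest and -0.32 to 0.08 at 3 h, and for Sat1 it was -0.13 to 0.31 and -0.15 to 0.29. For Smox the interval was wide, -0.82 to 0.55 at rest and -0.14 to 1.29 at 3 h. The 4 markers of marginal zone B cells summed to more in the knockout, at 1567 to 1698 against 1093 to 1401 normalized CPM at rest and at 2504 to 3192 against 2165 to 2430 at 3 h. Most of that sum was Cr2, at 1225 to 1411 against 818 to 1075 at rest, whereas Dtx1 had log2 differences of -0.12 at rest and -0.14 at 3 h, and none of the 4 passed the edgeR threshold between genotypes. The 3 erythroid markers summed to 232 to 385 in knockout and 33.8 to 237 in Cre-only resting samples. The part of these markers in the values of Odc1 and Srm was not tested.

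The difference between the genotypes in their response to activation (the interaction) passed the threshold for 0 of the 9 genes by edgeR, where 0.0813% of all genes passed it, and also for 0 at an unadjusted p under 0.05, which 5.07% of all genes reached, and 0 by DESeq2. For Odc1 the difference was 0.01 on the log2 scale with a 95% interval of -0.50 to 0.52, and for Amd1 it was -0.00032 with an interval of -0.37 to 0.37. For Srm it was -0.60 with an interval of -1.71 to 0.52, which turned to 0.20 without resting replicate 2 of the knockout cells. The smallest edgeR adjusted p among the 9 genes was 0.999.

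The genes that feed and use the pathway were counted in 5 lists of 38 genes in all, of which 26 passed the filter on low counts. The lists were written from general knowledge, but with earlier results of these data known. Their counts are therefore a description and not an independent comparison with all genes. On activation 18 of the 26 rose, 4 fell and 4 did not pass in Cre-only cells, and 17 rose, 3 fell and 6 did not pass in knockout cells. Of all genes, 38.6% rose and 36.4% fell in Cre-only cells, and 37.7% and 36.6% in knockout cells. The median log2 fold change of the 26 was 1.01 and 0.66, against 0.03 and 0.00 over all genes. Of the 6 tested genes of ornithine and arginine supply, 2 rose, 1 fell and 3 did not pass in Cre-only cells. Aldh18a1, which makes the pyrroline carboxylate from which proline and ornithine derive, went from 35.4 ± 0.590 to 304 ± 10.4 normalized CPM in Cre-only cells (SD, n = 3 each), a change of 3.10 (edgeR adjusted p = 1.76e-07) on the log2 scale. The knockout value was 2.79 (edgeR adjusted p = 4.36e-07).

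All 10 tested genes of S-adenosylmethionine supply and methionine salvage passed the test in both genotypes, 9 upwards and 1 downwards, where 75% of all genes passed in Cre-only and 74.3% in knockout cells. Mat2a, the S-adenosylmethionine synthetase of most tissues, went from 238 ± 9.75 to 1191 ± 61.8 normalized CPM in Cre-only cells (SD, n = 3 each), a log2 change of 2.32 (edgeR adjusted p = 2.98e-08), and the knockout cells gave 2.002 (edgeR adjusted p = 8.99e-08). Ahcyl1, a relative of the enzyme that clears S-adenosylhomocysteine, changed by 1.25 (edgeR adjusted p = 4.02e-08) and 1.21 (edgeR adjusted p = 6.76e-08). The 4 genes of hypusination, the modification of eIF5A that uses spermidine, all rose in both genotypes, as did 38.6% and 37.7% of all genes. Eif5a itself was at 285, 287 and 271 normalized CPM in Cre-only resting and 1273, 1293 and 1339 in Cre-only 3 h samples, with a log2 fold change of 2.21 (edgeR adjusted p = 1.12e-05), and 2.36 (edgeR adjusted p = 7.19e-06) in knockout cells. In knockout cells the libraries that stood apart were again the highest, with Eif5a at 257, 546 and 271 at rest and 2458, 1516 and 1537 at 3 h. Dhps, which transfers the aminobutyl group of spermidine to eIF5A, changed by 1.56 (edgeR adjusted p = 3.89e-06) and 1.53 (edgeR adjusted p = 5.19e-06).

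Of the 4 tested genes of polyamine transport, 2 rose, 1 fell and 1 did not pass in each genotype. Of all genes, 75% passed in Cre-only and 74.3% in knockout cells, so this share was close to the background. Atp13a2, which exports polyamines from the lysosome, went from 149 ± 6.65 to 33.5 ± 2.96 normalized CPM in Cre-only cells (SD, n = 3 each). On the log2 scale that is -2.15 (edgeR adjusted p = 1.53e-08), beside -2.16 (edgeR adjusted p = 2.25e-08) in knockout cells. Slc3a2, the heavy chain of amino acid transporters that has been linked to polyamine export, rose by 1.34 (edgeR adjusted p = 1.32e-05) and 1.43 (edgeR adjusted p = 8.46e-06). Of the other enzymes and regulators, 5 of 7 did not pass the filter, and Paox, the peroxisomal oxidase of acetylated polyamines, changed by -0.47 (edgeR adjusted p = 0.0198) in Cre-only cells, a call lost without resting replicate 1, at -0.45 (adjusted p = 0.0514), or 3-h replicate 2, at -0.41 (adjusted p = 0.0672). In knockout cells the change of Paox was -0.33 (edgeR adjusted p = 0.0822).

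**Figure D4:**
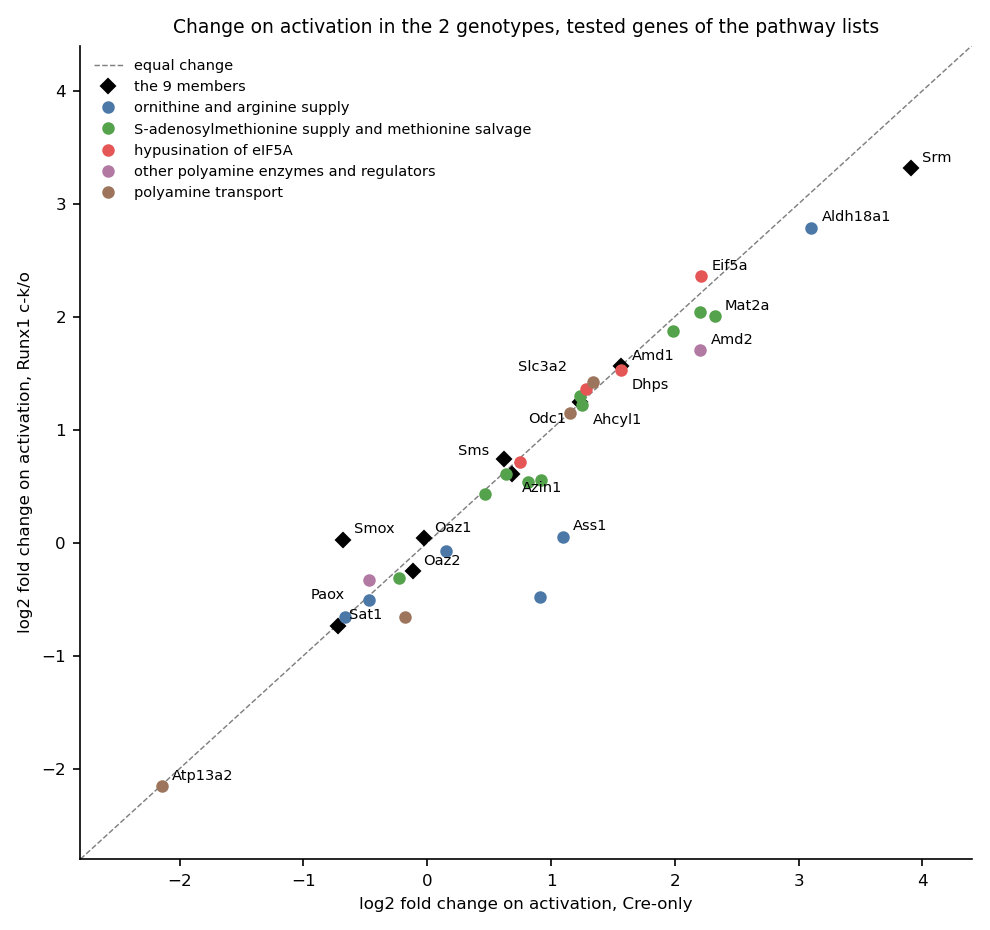
Log2 fold change on activation in Cre-only cells (horizontal axis) and in knockout cells (vertical axis) for the 9 polyamine genes and the tested genes of 5 wider pathway lists. Each point is a gene and the line marks equal change. Most lie near the line, and Ass1 lies below it at 1.09 and 0.05.

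Among the wider lists 2 of the 26 genes were higher in the knockout at rest and 1 at 3 h, where 0.731% and 1.47% of all genes were, and 1 was lower in the interaction, where 0.0148% of all genes were. Ass1, which makes argininosuccinate on the way to arginine, was at 12.3, 12.3 and 10.5 normalized CPM in Cre-only resting and 23.7, 25.4 and 26.0 in Cre-only 3 h samples. The knockout values of Ass1 were 28.1, 27.9 and 23.1 at rest and 28.0, 27.0 and 27.1 at 3 h. The Cre-only resting samples were the low ones, and the samples of the 3 other groups all lay between 23.1 and 28.1. The genotype difference at rest was 1.17 (SE 0.105, 95% interval 0.94 to 1.40, edgeR adjusted p = 0.000184), and the change on activation was 1.09 (edgeR adjusted p = 1.19e-06) in Cre-only and 0.05 (edgeR adjusted p = 0.641) in knockout cells. The interaction was -1.04 (SE 0.145, 95% interval -1.35 to -0.72, edgeR adjusted p = 0.0165), with an adjusted p of 1.21e-07 to 0.275 over its alternatives. With the replicate block within genotype it was -1.04 (edgeR adjusted p = 0.275), and the call was lost. That block pairs samples by number in both genotypes, although same-numbered samples deviated together throughout only in Cre-only cells. The loss therefore cannot be credited to the pairing of the Cre-only samples alone. The interaction of Ass1 also lost the threshold without Cre-only resting replicate 1, 2 or 3, Cre-only 3 h replicate 2 or 3, knockout resting replicate 1 or knockout 3 h replicate 2, with edgeR adjusted p-values of 0.0592 to 0.0747.

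Amd2, a near-identical copy of Amd1, had few counts and shares sequence with it, so its reads may belong to either gene. It had 2 to 8 counts in Cre-only resting, 15 to 31 in Cre-only 3 h, 28 to 44 in knockout resting and 100 to 136 in knockout 3 h samples. The genotypes did not overlap at either time, and the log2 fold change between them was 2.96 (edgeR adjusted p = 0.00387) at rest and 2.46 (edgeR adjusted p = 0.000841) at 3 h. On activation it was 2.21 (edgeR adjusted p = 0.000606) in Cre-only and 1.71 (edgeR adjusted p = 0.00016) in knockout cells. Amd1 itself differed between the genotypes by -0.03 at rest and -0.03 at 3 h on the log2 scale.

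Myc, whose product is known to bind the E-boxes of Odc1 shown above, was at 328, 374 and 425 normalized CPM in Cre-only resting and 964, 1064 and 1015 in Cre-only 3 h samples. For the knockout the levels of Myc were 293, 500.2 and 343 at rest and 1475, 1119.7 and 1183 at 3 h. The 3-h samples lay above the resting ones in both genotypes, and the libraries that stood apart were the highest of their groups, as they were for Odc1 and Srm. On activation Myc changed by 1.43 (edgeR adjusted p = 1.79e-05) on the log2 scale in Cre-only and 1.73 (edgeR adjusted p = 3.98e-06) in knockout cells, and between genotypes it was 0.01 (edgeR adjusted p = 0.987) at rest and 0.31 (edgeR adjusted p = 0.403) at 3 h. CACGTG was searched for also in the promoters of RefSeq genes (GRCm38.p6, 250 bases before to 50 after the start), where 7 of the 9 genes had an entry. It occurred in 2349 of 32851 entries (7.15%) and, among these 7 genes, in 1 of the 2 entries of Sms, where a missing match says only that these letters are not in the window.

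Genes whose levels followed a member most closely over the 12 samples were taken by Pearson's r of log2 levels, as a description. Closest to Odc1 were Manf (r = 0.994), Calr (r = 0.994) and Ptma (r = 0.993), and 2951 of the tested genes reached 0.9. Closest to Sat1 were 2610002J02Rik (r = 0.990), Rdm1 (r = 0.990) and Dalrd3 (r = 0.988), and 2300 genes reached 0.9. The points share 4 groups and the change on activation, which runs through most genes.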

How the data were processed

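RNA-seq was carried out on 12 samples of mouse splenic B cells, 3 in each of 4 groups, taken from the sample labels. Per the study's methods, ERCC spike-in RNA was added to lysed cells, poly(A)-selected libraries were made with a stranded kit and sequenced as paired ends, and the reads were aligned to mm9 with TopHat2 (2.0.11 per the labels, CASAVA 1.8.4 for base calls) and counted with featureCounts over Ensembl genes. The values deposited by the authors are raw counts per gene, without normalization and with no spike-in entries. The strand and multiple-alignment settings of the counting are not given in the sources used here, so counts of near-identical copies are uncertain. The authors compared groups with DESeq2 and RUV-seq factors, whose number is not given in the sources used here. A model with 1 RUVs factor was run here as an alternative. The RUV variant and control genes of the authors are not given either, so this is not a repeat of their fit.

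Genes were kept by filterByExpr (minimum of 10 counts; 13538 genes) and normalized by TMM in edgeR 4.0.16 under R 4.3.3. All 12 samples were fitted by robust quasi-likelihood with 1 term per group, and p-values were adjusted by Benjamini-Hochberg over all tested genes with a threshold of 0.05. Means are given ± SD, and intervals are 95% intervals of the fitted log2 fold change. Those intervals come from the spread between samples, and the floor of 3 counts covers counting error only. An exact permutation test of 3 against 3 samples cannot give a p under 0.1. The comparisons were 3 h against rest in each genotype, Runx1 c-k/o against Cre-only at each time, and their interaction. Comparisons that share a group of samples are not independent of each other. The alternatives were DESeq2's size factors, no filter, 10 counts in every sample, DESeq2 1.42.0, 1 RUVs factor taken from differences among replicates across the tested genes, only the groups compared, a replicate block and each sample left out. Leaving out both libraries that stood apart was added after seeing the data. Fits in edgeR and DESeq2, and in edgeR with 1 RUVs factor, were also run on simulated counts, for the genotype comparison at rest only. The outcome is not given here, and the other comparisons were not simulated.

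In Cre-only cells, a resting and a 3-h sample with 1 shared number deviated together from their group means, with correlations across genes of 0.309, 0.211 and 0.175, and were taken as paired on this ground, since the labels do not state it. The members and the gene lists were chosen with earlier results of these data known. The genes named from the wider lists were the 2 with the smallest adjusted p in each list for activation in Cre-only cells and any past the threshold between genotypes or in the interaction, besides Myc and Runx1. Of the 9 B cell markers 8 were matched. Exonic lengths, positions and near-identical stretches (BLAST+ 2.17.0) were taken from the mm9 genome and its annotation, and promoters from RefSeq. Tables and figures were made with Python 3.11.15, pandas 2.3.3 and matplotlib 3.10.9.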

Additional observations from a re-analysis of the deposited data

Results flagged for a closer look

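For Ass1 the change on activation differed between the genotypes in the edgeR fit of all 12 samples, but not under every alternative. Its log2 fold change in Runx1 c-k/o cells minus that in Cre-only cells was -1.04 (edgeR's quasi-likelihood test of the interaction, adjusted p = 0.0165), as Ass1 rose in the 3 Cre-only 3 h samples and stayed within the resting range, from 23.1 to 28.1 normalized CPM, in the 3 Runx1 c-k/o 3 h samples. It was flagged because this difference between genotypes was itself tested. The edgeR adjusted p was 0.275 with the replicate block within genotype, which pairs samples by number in both genotypes. It was 0.0592 to 0.0747 in the 7 of 12 fits without 1 sample in which the call was lost. The log2 value stayed between -1.13 and -0.97 in all 12 of those fits. A formal test for a single outlying sample was not run, since the groups hold 3 samples.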

How the results depend on the processing

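Of the log2 fold changes of the 9 genes and of the genes named beside them, 76 results with 1191 alternative values, 1071 kept their direction and their side of the threshold, 12 lost the threshold, 32 gained it and 76 turned direction, none of these with both values past the threshold. Odc1, Srm, Amd1, Azin1 and Sat1 passed on activation in both genotypes under all alternatives run. Their size depended on the model, and the cause was not tested. Oaz1 and Oaz2 passed downwards in both genotypes with 1 RUVs factor, and Smox passed on activation in Cre-only cells in 7 of 15 alternatives. Odc1 between genotypes passed in 3 of 15 alternatives at each time, and with these 1 of the 9 genes was called in place of 0: with 1 RUVs factor in edgeR, with that factor in DESeq2 and with both libraries that stood apart left out. The counts of the table limit Smox and Amd2 most. Samples per group limit the genotype comparisons, in which the adjusted p of Odc1 ran over several orders of magnitude.

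Over all genes, 202 were called between genotypes at rest, and 378 with DESeq2's Wald test, 524 with 1 RUVs factor in edgeR, 611 with 1 RUVs factor in DESeq2 and 595 with both libraries that stood apart left out. Over all genes, 375 were called between genotypes at 3 h, and 709 with DESeq2's Wald test, 1036 with 1 RUVs factor in edgeR, 1230 with 1 RUVs factor in DESeq2, 152 with only the groups compared in the fit and 921 with both libraries that stood apart left out. Over all genes, 11 were called in the interaction, and 83 with DESeq2's Wald test, 142 with 1 RUVs factor in edgeR, 253 with 1 RUVs factor in DESeq2, 4 with a replicate block within genotype and 187 with both libraries that stood apart left out.

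Log2 fold changes that turned direction were mostly near 0. With DESeq2's size factors, Smox was -0.011 on activation in Runx1 c-k/o cells, Amd1 was 0.018 between genotypes at 3 h and Amd1 was 0.047 and Sat1 was 0.031 in the interaction. Without a filter, Smox was -0.0056 on activation in Runx1 c-k/o cells. With 10 counts in every sample, Oaz1 was -0.054, Smox was -0.068 and Ass1 was -0.048 on activation in Runx1 c-k/o cells, Amd1 was 0.0086 between genotypes at 3 h, Amd1 was 0.058 and Sat1 was 0.041 in the interaction and Myc was -0.019 between genotypes at rest. With DESeq2's Wald test, Smox was -0.013 on activation in Runx1 c-k/o cells, Amd1 was 0.018 between genotypes at 3 h and Amd1 was 0.047 and Sat1 was 0.031 in the interaction. With 1 RUVs factor in edgeR, Oaz1 was -0.64 and Ass1 was -0.058 on activation in Runx1 c-k/o cells, Oaz2 was -0.048 between genotypes at 3 h, Odc1 was -0.013 in the interaction and Myc was -0.10 between genotypes at rest. With 1 RUVs factor in DESeq2, Oaz1 was -0.70 and Ass1 was -0.12 on activation in Runx1 c-k/o cells, Oaz2 was -0.0095 between genotypes at 3 h, Amd1 was 0.022 and Sat1 was 0.0074 in the interaction and Myc was -0.11 between genotypes at rest. With both libraries that stood apart left out, Oaz1 was -0.086 on activation in Runx1 c-k/o cells, Oaz1 was -0.018 and Myc was -0.24 between genotypes at rest, Oaz1 was -0.0087, Oaz2 was -0.038 and Sat1 was -0.026 between genotypes at 3 h and Amd1 was 0.0065 in the interaction. With only the groups compared in the fit, Myc was -0.020 between genotypes at rest. With the replicate number as a block across genotypes, Myc was -0.0020 between genotypes at rest.

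With each sample left out in turn, 84 to 135 genes between genotypes at rest, 182 to 637 genes between genotypes at 3 h and 4 to 29 genes in the interaction were called. Log2 fold changes that turned direction then ran, on activation in Cre-only cells, Oaz1 from -0.080 to 0.023. They ran, on activation in Runx1 c-k/o cells, Oaz1 from -0.19 to 0.19, Smox from -0.26 to 0.25 and Ass1 from -0.032 to 0.10. They ran, between genotypes at rest, Amd1 from -0.13 to 0.047, Oaz1 from -0.017 to 0.20, Smox from -0.35 to 0.15 and Myc from -0.24 to 0.17. They ran, between genotypes at 3 h, Amd1 from -0.12 to 0.089, Oaz1 from -0.0026 to 0.33, Oaz2 from -0.030 to 0.11 and Sat1 from -0.021 to 0.14. They ran, in the interaction, Odc1 from -0.12 to 0.22, Srm from -0.88 to 0.20, Amd1 from -0.078 to 0.11, Oaz1 from -0.11 to 0.22, Azin1 from -0.14 to 0.015 and Sat1 from -0.091 to 0.056. Srm turned in the interaction without Runx1 c-k/o resting replicate 2. Oaz1 turned without Runx1 c-k/o resting replicate 2 between genotypes at rest and without Runx1 c-k/o 3-h replicate 1 between genotypes at 3 h and in the interaction, and on activation it turned in 2 of 6 such fits of Cre-only and 3 of 6 of Runx1 c-k/o cells.

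The replicate block within genotype gave -0.73 for Smox on activation in Cre-only cells (edgeR adjusted p = 0.0302) and changed no other call of the 9 genes. It ended the call of Ass1 in the interaction, at -1.04 (edgeR adjusted p = 0.275). With the replicate number as a block, Odc1 was 0.45 between genotypes at rest (edgeR adjusted p = 0.384) and 0.46 at 3 h (edgeR adjusted p = 0.25), and that block called 140 genes at rest. Same-numbered resting and 3-h Runx1 c-k/o samples had correlations of -0.32, -0.32 and 0.33, and same-numbered samples across genotypes of -0.091 to 0.10, so these share only a number. Across numbers, Runx1 c-k/o resting replicate 2 and 3-h replicate 1, the libraries that stood apart, had a correlation of 0.551. It was 0.362 for resting replicate 3 with 3-h replicate 2 and 0.331 for resting replicate 1 with 3-h replicate 3. Whether these samples came from the same cells was not tested, and no fit paired them in this way.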
